A study of Mus musculus with 22 samples.

Results

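The choroid plexus (ChP) carriers for amino acids and neurotransmitters described here are 75 protein-coding genes, of 33984 genes with counts. They were chosen by symbol alone, as all genes of the solute carrier families Slc1, Slc3, Slc6, Slc7, Slc17, Slc18, Slc32, Slc36, Slc38 and Slc43, whatever they carry. Slc7a6os, a neighbour of Slc7a6 that is no carrier, has a matching symbol and is counted among them. Adult mouse ChP RNA was sequenced in 14 pools of mice, with 2 pools, A and B, in each of 7 groups. Of these, 4 groups came from 3-month-old Otx2 lox/lox mice of strain S129, given Cre-Tat recombinant protein or vehicle by intracerebroventricular injection and dissected 15 days later. Pools of 5 mice labelled Cre-Tat and of 4 mice labelled vehicle were made from the lateral ventricles (LV ChP) and from the fourth ventricle (4V ChP). The other 3 groups were 4V ChP pools of strain B6D2 labelled WT, Otx2 (+/-) and Otx2 (+/AA). The methods describe pooled 4V ChP of 4 mutants and 5 WT littermates, 3 months old, with duplicate samples of each genotype. Whether the duplicates held different mice is not stated there. The mutants carried a GFP allele in place of 1 Otx2 allele from conception, and the meaning of AA is not stated in the sources used here. Cre-Tat is a recombinase that enters cells, so that cells it does not reach keep both alleles. Both sexes were mixed in the pools. The conditional and constitutive models differ in strain and sequencing run, so that these cannot be told apart. Most files of the conditional run carry another library number in their names than the sample they are attached to, and they were joined by number. Under the attachment as recorded, 14 of the 17 carrier calls of the Cre-Tat comparisons turned direction, with values given in the closing section.

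At the barrier between blood and cerebrospinal fluid, the ChP epithelium moves amino acids through carriers on its vascular and ventricular faces. Sodium-coupled carriers of the Slc1, Slc6 and Slc38 families accumulate amino acids or clear transmitters. Light chains of the Slc7 family exchange amino acids, and most reach the membrane only when bound to a heavy chain of the Slc3 family. Slc18 and Slc32 members load transmitters into vesicles, while the Slc17 family holds vesicular glutamate carriers beside sialic acid and phosphate carriers. OTX2 is a homeodomain transcription factor of ChP epithelium, and homeodomain proteins of its class bind a bicoid-type site.

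The promoters of the 4 carriers past the threshold in 3 or more comparisons are shown first, because these genes recur in the results. These comparisons share pools, so their calls are not independent. For Slc1a6 and Slc6a20a, the comparison of the models reused the 4V pools of the Cre-Tat comparison. For Slc1a3 and Slc7a10, the same Otx2 (+/-) pools entered the comparisons with WT and with Otx2 (+/AA). RefSeq gives promoter windows in GRCm38.p6 of 250 bases before and 50 bases after a start site, and 54 of the 75 carriers had 1 or more windows. Capitals mark the homeodomain core TAAT or its reverse complement ATTA, where matches may overlap. The windows are chr15:8710758-8711057 (minus strand) for Slc1a3, chr10:78780246-78780545 (plus strand) for Slc1a6, chr9:123678783-123679082 (minus strand) for Slc6a20a and chr7:35186135-35186434 (plus strand) for Slc7a10.
Slc1a3: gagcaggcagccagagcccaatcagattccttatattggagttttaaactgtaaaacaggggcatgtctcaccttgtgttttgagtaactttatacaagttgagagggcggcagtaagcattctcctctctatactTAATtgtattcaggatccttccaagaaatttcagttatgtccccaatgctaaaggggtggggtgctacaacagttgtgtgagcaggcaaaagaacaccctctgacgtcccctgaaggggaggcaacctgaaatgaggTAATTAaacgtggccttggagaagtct
Slc1a6: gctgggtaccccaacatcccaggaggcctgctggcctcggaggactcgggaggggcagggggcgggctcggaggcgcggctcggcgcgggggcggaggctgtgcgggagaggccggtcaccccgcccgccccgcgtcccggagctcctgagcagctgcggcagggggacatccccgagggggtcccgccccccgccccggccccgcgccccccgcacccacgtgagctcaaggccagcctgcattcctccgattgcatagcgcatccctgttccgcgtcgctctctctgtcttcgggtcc
Slc6a20a: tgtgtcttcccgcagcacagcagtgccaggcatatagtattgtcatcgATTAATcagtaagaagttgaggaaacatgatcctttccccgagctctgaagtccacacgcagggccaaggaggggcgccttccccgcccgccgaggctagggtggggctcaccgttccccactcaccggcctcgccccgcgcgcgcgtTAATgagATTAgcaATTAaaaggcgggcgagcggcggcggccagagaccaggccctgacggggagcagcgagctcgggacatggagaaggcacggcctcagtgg
Slc7a10: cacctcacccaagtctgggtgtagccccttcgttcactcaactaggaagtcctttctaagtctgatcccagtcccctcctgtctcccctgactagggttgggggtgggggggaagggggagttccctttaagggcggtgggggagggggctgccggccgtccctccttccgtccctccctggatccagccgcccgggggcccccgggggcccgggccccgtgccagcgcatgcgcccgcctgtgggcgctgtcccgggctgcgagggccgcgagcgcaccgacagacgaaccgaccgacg
The core has 3 matches in the Slc1a3 window, 5 in the Slc6a20a window and 0 in the windows of Slc1a6 and Slc7a10. The bicoid-type site TAATCC, or GGATTA on the other strand, is in none of these 4 windows. Among the windows of all matched carriers it is in 3 of 78, those of Slc6a5, Slc6a13 and Slc6a14, against 7.06% of all 32851 RefSeq windows. The core alone is in 46 of the 78 carrier windows (59%) and in 58% of all windows. A match or its absence describes the letters of a window and nothing more.

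The labels were checked on Otx2 first. Its count, over whole transcripts and as a normalised level (CPM, counts scaled to library size with TMM factors within a sequencing run), was 377 and 459 in vehicle LV pools and 1209 and 1002 in LV pools labelled Cre-Tat (1.41 ± 0.18, adjusted p = 0.00051 by edgeR). In 4V ChP it was 377 and 385 CPM in vehicle pools and 1175 and 1195 CPM in pools labelled Cre-Tat. It was 371 and 314 CPM in WT, 1062 and 913 CPM in Otx2 (+/-) and 350 and 366 CPM in Otx2 (+/AA) pools. These values are of transcript Otx2-201 alone. Its count was thus higher in the pools labelled Cre-Tat and Otx2 (+/-) than in their controls, against what these labels name. A count over the whole transcript cannot single out the exon that Cre removes. Among the other Otx2 transcripts, only Otx2-206 went the other way in Otx2 (+/-) pools, at 939 and 692 raw counts against 1254 and 972 in WT pools. Under the Cre-Tat label every Otx2 transcript had more raw counts in both ventricles. The study's methods describe a check of Otx2 by qPCR on a sample of each ChP from the injected mice. Its stated aim was to ensure lower average Otx2 expression in Cre-Tat samples than in controls, and it was not analysed here. For this reason every direction below is between pools by their labels. The ventricle labels were checked on genes chosen after their values were seen. Hoxa2, a hindbrain gene, was at 1.09 to 3.39 CPM in 4V pools and at 0 to 0.0934 CPM in LV pools. Emx2, a forebrain gene, was at 4.58 to 5.56 CPM in LV pools and at 0 to 0.265 CPM in 4V pools. The 12 epithelial markers, Ttr among them, made up 21.9% and 22.8% of normalised counts in vehicle LV pools and 21.5% and 18.3% in vehicle 4V pools.

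Per kilobase of transcript, a few carriers made up most of the carrier level. Slc38a3, the glutamine carrier of system N, was highest in vehicle 4V pools at 83.3 CPM per kb, the mean of 2 pools. Slc7a10, the small neutral amino acid exchanger Asc-1, followed at 71.4 CPM per kb. Slc3a2, the 4F2 heavy chain, was at 57.2 and Slc6a20a, the proline and imino acid carrier SIT1, at 49.6 CPM per kb. These 4 genes held 59.5% of the summed carrier level per kb in vehicle 4V pools and 58.5% in vehicle LV pools. In vehicle LV pools the order of the first 8 was the same, with Slc38a3 at 103, Slc7a10 at 80.1, Slc3a2 at 69.9 and Slc6a20a at 47.9 CPM per kb. The pools of Slc38a3 and Slc7a10 overlapped in 4V ChP and those of Slc7a10 and Slc3a2 in LV ChP, so these neighbours do not differ beyond their spread. Next came Slc6a15, a carrier of branched-chain amino acids and proline, at 32.4 CPM per kb in LV and 23.9 in 4V vehicle pools. The system A carriers Slc38a1 and Slc38a2 lay at 23.0 and 19.1 CPM per kb in LV and at 21.3 and 20.1 CPM per kb in 4V, where their pools overlapped. The other members of this set were Slc38a10, the exchanger Slc7a11, the creatine carrier Slc6a8 and the proline and tryptophan carrier Slc36a4. Their means ran from 6.62 CPM per kb (Slc7a11 in 4V) to 16.6 CPM per kb (Slc38a10 in LV).

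**Figure D1:**
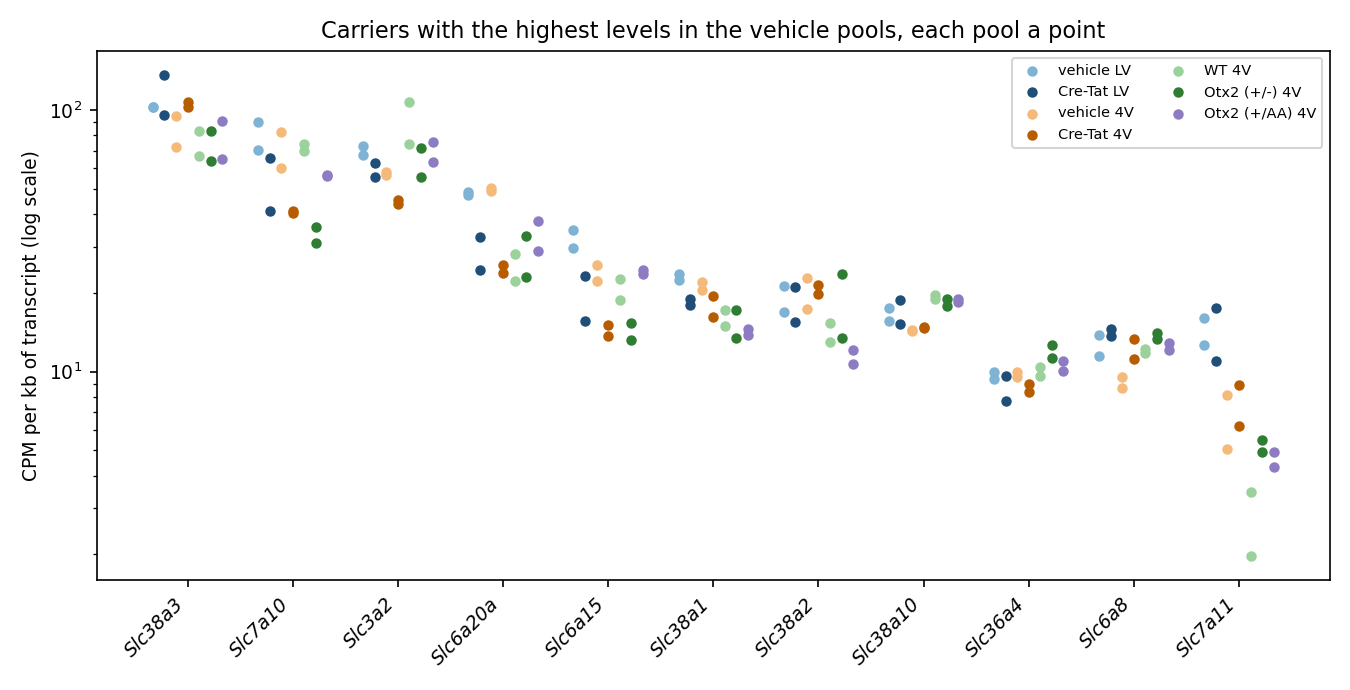
Level of the 11 carriers that were among the 10 highest in vehicle LV or vehicle 4V pools, in CPM per kb of transcript on a log axis, with 1 point for each of the 14 pools and 1 colour for each group. Slc38a3 leads in the vehicle 4V pools with a mean of 83.3 CPM per kb, and Slc7a11 spreads most, from 14.3 CPM per kb in vehicle LV to 2.72 CPM per kb in WT pools.

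At the other end, 29 of the 75 carriers were under 1 CPM in every pool. These were 10 of 20 Slc6 members, among them the monoamine carriers Slc6a2, Slc6a3 and Slc6a4, and 6 of 9 Slc17 members, among them the VGLUT1 gene Slc17a7. The vesicular GABA and glycine carrier Slc32a1 and the vesicular monoamine carrier Slc18a2 were in this set too, while Slc18a1, the other vesicular monoamine carrier, was at 1.98 to 5.18 CPM. Of the plasma membrane GABA carriers, Slc6a11 was at 0.161 to 1.38 CPM and Slc6a13 at 0.246 to 4.31 CPM over the 14 pools. In contrast, 17 carriers were at 10 CPM or more in every pool. Within the conditional run the steadiest of these was Slc36a4, at 50.5 to 65.4 CPM over 8 pools. Within the constitutive run it was Slc38a10, at 81.5 to 89.9 CPM over 6 pools. Slc7a11, the cystine and glutamate exchanger xCT, varied most, at 46.8 to 161 CPM in the first and 18.2 to 50.7 CPM in the second run.

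Levels were scaled within each run, so those of different runs are set side by side with no test. Slc6a17, a carrier of synaptic vesicles, was at 0.542 to 1.43 CPM in the 4V pools of the conditional model and at 66.2 to 76.1 CPM in those of the constitutive model. Slc1a1, the glutamate and cysteine carrier EAAC1, lay the other way, at 3.50 to 7.90 CPM in 4V pools of the conditional model and at 0.642 to 1.11 CPM in those of the constitutive model. Strain, run and model cannot be told apart in these gaps.

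In 4V ChP, pools labelled Cre-Tat had higher counts of 2 glutamate carriers, a taurine carrier and a glycine carrier, and lower counts of carriers of proline and of neutral amino acids and of the glutamate carrier Slc1a1. Of the 44 carriers tested, 4 were higher (9.09%) and 8 were lower (18.2%), by edgeR's quasi-likelihood test with a Benjamini-Hochberg adjusted p under 0.05 over the 14550 genes tested. Over all these genes, 5.7% were called higher and 4.98% lower. The median log2 fold change was -0.01 over the carriers tested and 0.01 over all genes. With total counts in place of TMM, which moved the median of all genes by 0.14, 7 carriers were higher and 5 lower. The other 31 carriers had too few counts to be tested. Values in brackets below are log2 fold changes with their standard error (SE), from 2 pools against 2. No overlap between 2 and 2 pools is a description and not a test, and its share over all genes is not given here. Slc38a10 was at 65.35 and 66.29 CPM in vehicle and 67.7 and 67.15 CPM in Cre-Tat 4V pools. These did not overlap, yet the change was 0.04 ± 0.13 (adjusted p = 0.9 by edgeR).

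Slc1a6, the glutamate carrier EAAT4 known from Purkinje cells, was at 0.217 and 0.813 CPM in vehicle 4V pools and at 9.50 and 6.50 CPM in pools labelled Cre-Tat (4.02 ± 0.42, adjusted p = 4.66e-06). Both Cre-Tat pools lay far above both vehicle pools, which rest on 3 and 9 counts. The gene passed the filter on low counts through the Cre-Tat pools, where it was high. The 7 markers of Purkinje and granule neurons summed to 9.85 and 4.97 CPM in vehicle and 4.03 and 5.27 CPM in Cre-Tat 4V pools. Of 2 of them tested, 0 were called by edgeR, 1 was at an unadjusted p under 0.05 and 0 were called by DESeq2. The Purkinje marker Pcp2 was at 0.217 and 0.181 CPM and 0.0531 and 0.443 CPM in these pools.

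Slc1a3, the glutamate carrier GLAST, was at 11.5 and 7.59 CPM in vehicle 4V pools and at 26.6 and 28.2 CPM in pools labelled Cre-Tat (1.51 ± 0.19, adjusted p = 4.70e-05). The groups did not overlap, and the gene was called with any 1 of the 4 pools left out. Slc1a1 was at 7.90 and 6.50 CPM against 3.87 and 3.50 CPM (-0.97 ± 0.24, adjusted p = 0.015), lower in both Cre-Tat pools. Exons of 4430402I18Rik on the other strand cover 32% of its transcript, and that gene was at 9.57 to 15.1 CPM in these 4 pools. The strand setting of the counting is not stated, so reads of such partners cannot be told apart. Slc1a2, the astrocyte carrier GLT-1, overlapped between the groups, at 11.2 and 6.05 CPM against 9.71 and 8.07 CPM. The 6 astrocyte markers summed to 141 and 121 CPM in vehicle and 112 and 114 CPM in Cre-Tat 4V pools, with Gfap and Aqp4 called higher and Aldh1l1 lower. Their part in the glutamate carrier values was not tested.

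Slc6a6, the taurine carrier, rose from 11.6 and 13.1 CPM in vehicle to 28.2 and 30.3 CPM in Cre-Tat 4V pools (1.25 ± 0.16, adjusted p = 5.86e-05), and was called with any 1 pool left out. Slc6a9, the glycine carrier GlyT1, was at 3.19 and 3.70 CPM against 6.37 and 7.24 CPM (0.99 ± 0.25, adjusted p = 0.014). Neither gene overlapped between the groups. Exons of Ccdc24 on the other strand cover 41.1% of the Slc6a9 transcript, and Ccdc24 was at 35.1 and 37.9 CPM in vehicle and 30.5 and 33.9 CPM in Cre-Tat pools, which did not pass the test (adjusted p = 0.52 by edgeR).

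Slc6a20a was lower in the pools labelled Cre-Tat of both ventricles. In 4V ChP it was at 134 and 137 CPM in vehicle and 64.8 and 69.8 CPM in Cre-Tat pools (-1.004 ± 0.13, adjusted p = 6.28e-05), and it was called with any 1 pool left out. In LV ChP it was at 133 and 129 CPM against 66.7 and 89.3 CPM (-0.75 ± 0.17, adjusted p = 0.031). The LV groups did not overlap either, but the call was lost without Cre-Tat pool A (adjusted p = 0.075), vehicle pool A (0.16) or vehicle pool B (0.11), and with total counts (0.11). Its paralogue Slc6a20b, at 0.135 to 2.39 CPM in the same 8 pools, is similar in sequence, so the split of reads between them is uncertain. Exons of Gm17120 on the other strand cover 15.2% of the Slc6a20a transcript. Slc6a15 was at 80.4 and 91.8 CPM in vehicle and 54.2 and 49.6 CPM in Cre-Tat 4V pools (-0.72 ± 0.14, adjusted p = 0.0018). In LV ChP it was at 107 and 126 CPM against 83.6 and 56.1 CPM (-0.74 ± 0.19, adjusted p = 0.055), which did not pass the threshold. DESeq2 called it (adjusted p = 0.012), as did edgeR with all groups of the run in 1 fit (0.028), while with total counts the adjusted p was 0.22.

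Among the heteromeric exchangers, 3 light chains were lower in Cre-Tat 4V pools. Slc7a10 was at 162 and 117 CPM in vehicle and 78.7 and 80.0 CPM in Cre-Tat 4V pools (-0.81 ± 0.15, adjusted p = 0.0019). Exons of Lrp3 on the other strand cover 19.3% of its transcript, and Lrp3 was at 8.85 to 11.2 CPM in these pools. Slc7a6, the light chain y+LAT2, was at 26.0 and 27.6 CPM against 16.5 and 15.3 CPM (-0.75 ± 0.16, adjusted p = 0.0041), and was called with any 1 pool left out. Slc7a5, the large neutral amino acid exchanger LAT1, was at 13.6 and 13 CPM against 8.49 and 8.91 CPM (-0.61 ± 0.18, adjusted p = 0.036). None of these light chains overlapped between the groups. The heavy chain Slc3a2 was at 106 and 102 CPM against 82.4 and 79.6 CPM (-0.36 ± 0.13, adjusted p = 0.098), which did not pass the threshold although the groups did not overlap. Slc7a8, the light chain LAT2, overlapped, at 32.5 and 37.2 CPM against 29.5 and 45.9 CPM.

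Outside the heteromers, Slc7a4, an orphan member of the cationic carrier subfamily, was at 29.9 and 25.9 CPM against 20.2 and 16.8 CPM in Cre-Tat 4V pools (-0.59 ± 0.16, adjusted p = 0.025). Slc17a5, the lysosomal sialic acid carrier sialin, was at 20.1 and 19.8 CPM against 13.6 and 13 CPM (-0.58 ± 0.16, adjusted p = 0.028). Of the 12 calls in 4V ChP, 6 were lost without vehicle pool A, at an adjusted p of 0.086 for Slc7a10, 0.095 for Slc6a9, 0.15 for Slc17a5, 0.16 for Slc1a1, 0.2 for Slc7a5 and 0.25 for Slc7a4. Slc17a5 was also lost without vehicle pool B (0.076) or Cre-Tat pool B (0.071). Slc7a5 was also lost without vehicle pool B (0.075) or Cre-Tat pool A (0.075), and Slc7a4 without Cre-Tat pool B (0.12). DESeq2 did not call Slc7a4 (adjusted p = 0.065), Slc1a1 (0.077), Slc6a9 (0.082), Slc17a5 (0.094) or Slc7a5 (0.16). With total counts the calls of Slc7a4 (0.09), Slc17a5 (0.11) and Slc7a5 (0.12) were lost.

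No tested member of the Slc38, Slc36 or Slc43 families was past the threshold in either ventricle by edgeR with TMM, or by DESeq2. Slc38a3, the highest carrier per kb, was at 244 and 186 CPM in vehicle and 266 and 278 CPM in Cre-Tat 4V pools (0.34 ± 0.15, adjusted p = 0.18). The groups did not overlap, and with total counts the adjusted p was 0.041. Slc38a1 was at 143 and 154 CPM against 112 and 135 CPM (-0.26 ± 0.14, adjusted p = 0.28), and Slc38a2 overlapped, at 80.6 and 107 CPM against 100 and 92.7 CPM. Slc38a9, a lysosomal carrier that senses arginine, stayed within 11.5 to 14.7 CPM over the 8 pools of the run. Slc43a2, the neutral amino acid carrier LAT4, was at 2.76 and 3.84 CPM in vehicle and 6.13 and 6.68 CPM in Cre-Tat LV pools (0.96 ± 0.26, adjusted p = 0.064), with no overlap. It was called there with total counts (adjusted p = 0.039 by edgeR) and with all groups of the run in 1 fit (0.037). In 4V ChP it was at 3.84 and 5.24 CPM against 6.90 and 6.79 CPM (0.61 ± 0.24, adjusted p = 0.13), and with total counts the adjusted p was 0.048.

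**Figure D2:**
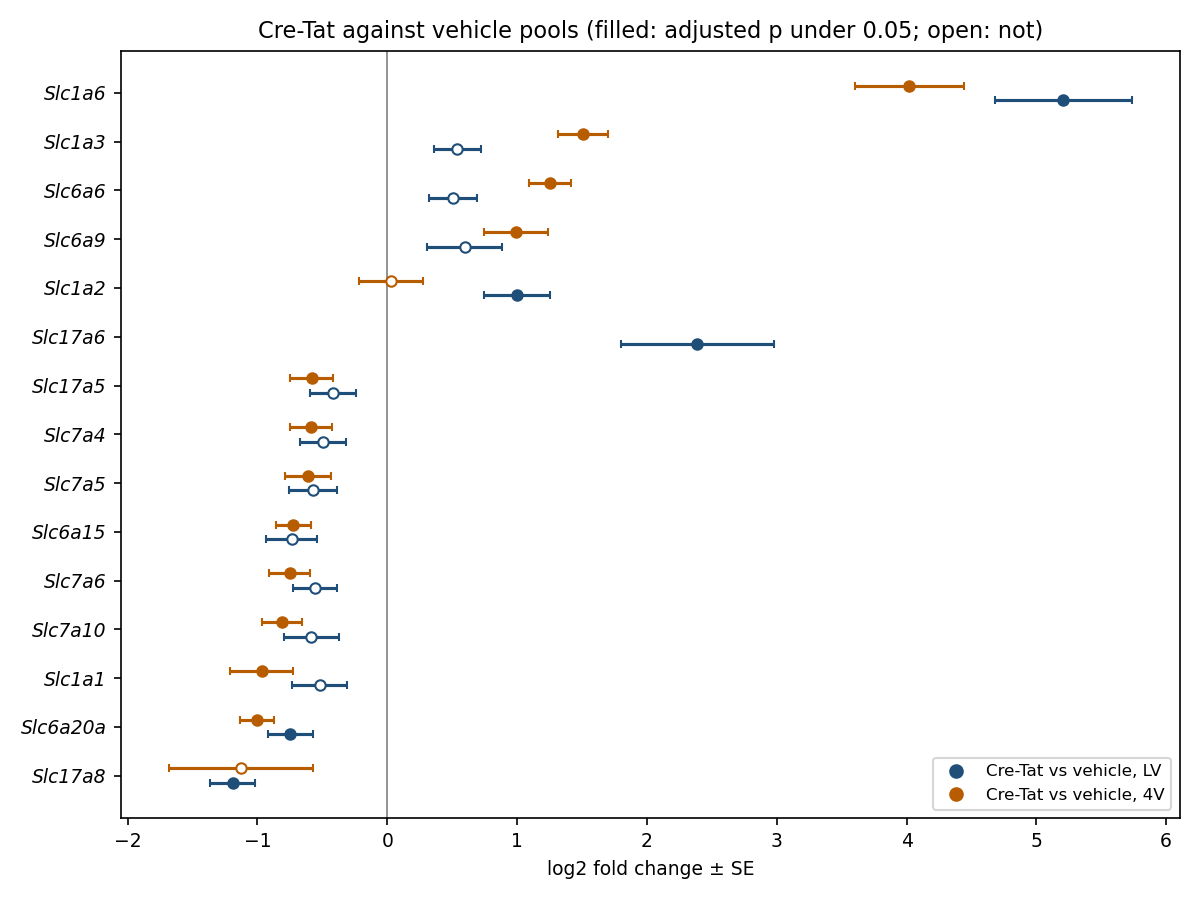
Log2 fold change ± SE of the carriers past the threshold in LV or 4V ChP between pools labelled Cre-Tat and vehicle, with filled points for an adjusted p under 0.05. Slc1a6 lies far to the right at 5.21 in LV and 4.02 in 4V, while Slc6a20a is to the left of 0 and filled in both ventricles.

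In LV ChP, pools labelled Cre-Tat had higher counts of Slc1a6, of the VGLUT2 gene Slc17a6 and of Slc1a2, and lower counts of Slc6a20a and of the VGLUT3 gene Slc17a8. Of 47 carriers tested, 3 were higher (6.38%) and 2 lower (4.26%), against 2.21% and 1.03% of the 15002 genes tested. The median log2 fold change was 0.03 over the carriers tested and 0.00 over all genes. Total counts, which moved the median of all genes by 0.17, gave 3 higher and 1 lower. DESeq2 called 2 higher and 3 lower.

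Slc1a6 was at 0.0934 and 0.0973 CPM in vehicle LV pools, from 2 and 2 counts, and at 3.57 and 3.86 CPM in pools labelled Cre-Tat (5.21 ± 0.53, adjusted p = 8.30e-05). The gene passed the filter on low counts through the Cre-Tat pools, where it was high, and the fitted value depends on the small count that the fit adds. The ratio of the pooled counts was 38.9, with an exact 95% interval of 14.9 to 144 that covers counting error only. The Purkinje and granule neuron markers summed to 8.50 and 9.19 CPM in vehicle and 8.48 and 10.1 CPM in Cre-Tat LV pools, and Pcp2 was at 0.140 and 0.0486 CPM in vehicle pools and at 0 in both Cre-Tat pools. Of 3 of these markers tested, 0 were called by edgeR, 1 was at an unadjusted p under 0.05 and 0 were called by DESeq2. Slc17a8 was at 19.5 and 21.1 CPM against 8.52 and 9.20 CPM (-1.19 ± 0.18, adjusted p = 0.0018), and was called with any 1 pool left out.

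Slc1a2 was at 14.4 and 27.1 CPM in vehicle and 33.9 and 49.2 CPM in Cre-Tat LV pools (1.002 ± 0.25, adjusted p = 0.046). The groups did not overlap, but each pair of pools lay far apart. Without vehicle pool A the adjusted p was 0.38, and without Cre-Tat pool B it was 0.14. Slc17a6 was at 0.420 and 0.389 CPM against 3.22 and 1.03 CPM (2.39 ± 0.59, adjusted p = 0.041), where the filter was passed through the Cre-Tat pools alone, and without Cre-Tat pool A the adjusted p was 0.39. DESeq2 gave Slc17a6 an adjusted p of 0.057, and with all groups of the run in 1 fit it was 0.063 for Slc17a6 and 0.06 for Slc1a2. The 8 neuron markers summed to 74.8 and 64.1 CPM in vehicle and 69.99 and 72.9 CPM in Cre-Tat LV pools, with Snap25 called higher. In 4V ChP they summed to 87.7 and 66.1 CPM against 54.4 and 54.2 CPM, with Eno2 and Syt1 called lower. In LV ChP the 6 astrocyte markers summed to 94.0 and 94.8 CPM against 82.5 and 93.3 CPM, with Aqp4 called higher and Aldh1l1 lower. Their part in these results was not tested.

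The carriers called in 4V ChP alone had LV values as follows. Slc1a3 was at 15.2 and 20.03 CPM in vehicle and 25.1 and 26.2 CPM in Cre-Tat LV pools (0.54 ± 0.18, adjusted p = 0.14). Slc6a6 was at 17.5 and 17.4 CPM against 28.6 and 20.8 CPM (0.51 ± 0.19, adjusted p = 0.2). Neither passed the threshold. Slc7a10 was at 176 and 137 CPM against 80.3 and 128 CPM (-0.58 ± 0.21, adjusted p = 0.19), with no overlap between the groups. The light chains Slc7a5 and Slc7a6 had log2 fold changes of -0.57 ± 0.18 and -0.56 ± 0.17 (adjusted p = 0.13 and 0.098 by edgeR). Slc7a4 and Slc17a5 had -0.50 ± 0.18 and -0.42 ± 0.18 (adjusted p = 0.19 and 0.29 by edgeR). Slc1a1 had -0.52 ± 0.21 and Slc6a9 0.60 ± 0.29 (adjusted p = 0.26 and 0.37 by edgeR), and all 4 lay on the same side of 0 as in 4V ChP. Slc17a8, called in LV ChP alone, was at 1.09 and 0.813 CPM in vehicle and 0.478 and 0.394 CPM in Cre-Tat 4V pools (-1.12 ± 0.56, adjusted p = 0.25).

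Other cell markers moved with the Cre-Tat label. The 12 epithelial markers made up 21.9% and 22.8% of normalised counts in vehicle LV pools and 12.3% and 16.3% in Cre-Tat LV pools, with 5 called lower and Otx2 higher. In 4V ChP the shares were 21.5% and 18.3% against 9.76% and 8.67%, with 11 called lower and Otx2 higher. The 8 macrophage markers summed to 57.0 and 52.1 CPM in vehicle and 110 and 85.4 CPM in Cre-Tat 4V pools, with 5 called higher, and to 72.0 and 81.7 CPM against 133 and 125 CPM in LV ChP, with 3 called higher. The 5 ependymal markers summed to 194 and 159 CPM against 317 and 307 CPM in 4V ChP and to 161 and 171 CPM against 254 and 314 CPM in LV ChP, with 2 and 3 of 4 tested called higher. Of the remaining marker lists, the 6 lymphocyte markers summed to at most 2.87 CPM in vehicle pools and 3.35 to 9.33 CPM in Cre-Tat pools, with Ighm called higher in both ventricles and Cd3g in LV ChP. Cnp of the 6 oligodendrocyte markers and Col1a2 of the 7 fibroblast markers were higher in both, Pdgfra of the latter was lower in both, and Plvap of the 7 endothelial markers was higher in 4V ChP. Of the 6 mural markers 0 were called in either ventricle by edgeR or DESeq2, with 2 in LV and 0 in 4V ChP at an unadjusted p under 0.05, and the 5 erythrocyte markers had too few counts to be tested. In RNA of whole tissue, fewer cells of a type and less RNA per cell cannot be told apart, and the part of these shifts in the carrier values was not tested.

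Whether the response to the Cre-Tat label differs between ventricles was asked directly over 8 pools. LV and 4V pools may hold tissue of the same mice, which the sources used here do not tie to pools, and these tests treat them as independent. Of 50 carriers tested, 0 differed by edgeR, against 0.00642% of the 15565 genes tested, and 0 differed by DESeq2. At an unadjusted p under 0.05 by edgeR there were 4 carriers of the 50, and 416 of the 15565 genes. Slc1a3 differed by 0.97 ± 0.27 on the log2 scale, 4V response minus LV response (adjusted p = 1 by edgeR), and Slc6a6 by 0.74 ± 0.25 (adjusted p = 1 by edgeR). A difference between ventricles was thus not shown for the carriers tested, including those past the threshold in 1 ventricle only.

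In the constitutive model, the Otx2 (+/-) pools had more Slc1a3 and less Slc7a10 than WT pools. Of 44 carriers tested, 1 was higher (2.27%) and 1 lower (2.27%), against 1.78% and 1.75% of the 14573 genes tested, so these shares lie near those of all genes. The median log2 fold change was 0.01 over the carriers tested and 0.00 over all genes. Slc1a3 was at 8.24 and 12.0 CPM in WT and 27.4 and 34.2 CPM in Otx2 (+/-) pools (1.61 ± 0.20, adjusted p = 0.0042). Slc7a10 was at 145 and 137 CPM in WT and 60.4 and 69.6 CPM in Otx2 (+/-) pools (-1.12 ± 0.12, adjusted p = 0.0018). Neither gene overlapped between the groups, and both were called with any 1 pool left out. Lrp3, which overlaps the Slc7a10 transcript on the other strand, was at 12.8 and 11.6 CPM in WT and 16.7 and 16.6 CPM in Otx2 (+/-) pools.

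Beside these, Slc3a1, the rBAT heavy chain, had the largest fold among carriers that did not pass, at 0.214 and 0.233 CPM in WT and 0.731 and 0.636 CPM in Otx2 (+/-) pools (1.59 ± 0.60, adjusted p = 0.21). It had 4 and 4 counts in WT and 14 and 12 counts in Otx2 (+/-) pools. The gene thus passed the filter on low counts through the Otx2 (+/-) pools, where it was high. Exons of Prepl on the other strand cover 26.5% of its transcript. Slc7a11 was at 18.2 and 31.99 CPM against 45.3 and 50.7 CPM (0.94 ± 0.23, adjusted p = 0.065), with no overlap, and DESeq2 gave it an adjusted p of 0.0026. Slc6a15 was at 67.9 and 81.8 CPM against 47.7 and 55.2 CPM (-0.54 ± 0.13, adjusted p = 0.07), and DESeq2 gave 0.042. Leaving out 1 pool changed the count of carriers called by edgeR, and the count over all genes changed too. This change is not read as particular to the carriers. The astrocyte markers summed to 193 and 185 CPM in WT and 192 and 254.9 CPM in Otx2 (+/-) pools, with Aqp4 and S100b of 6 called higher. The epithelial markers made up 20.6% and 19.7% of normalised counts in WT and 13.1% and 13.9% in Otx2 (+/-) pools, with 3 of 12 called lower and Otx2 higher. Mrc1 of the macrophage and Col1a2 of the fibroblast markers were higher too. Their part in the carrier values was not tested.

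**Figure D3:**
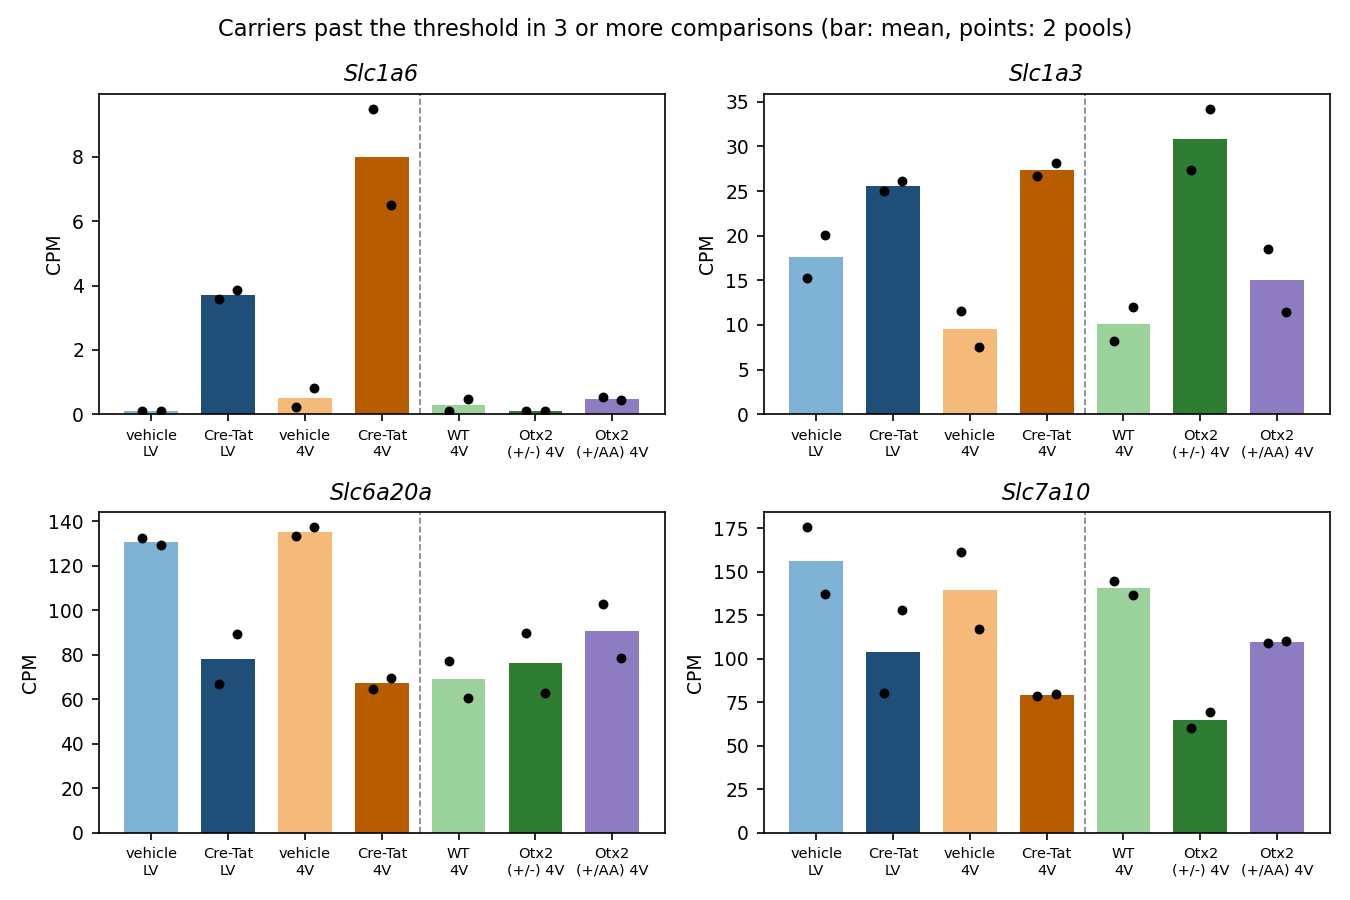
CPM of Slc1a6, Slc1a3, Slc6a20a and Slc7a10 in the 7 groups, with bars for the mean of 2 pools, points for the pools and a dashed line between the separately scaled conditional and constitutive runs. Slc7a10 is lower in the Cre-Tat 4V and Otx2 (+/-) pools than in their controls, while Slc6a20a is lower in the Cre-Tat pools and its Otx2 (+/-) pools, at 90.0 and 62.7 CPM, overlap the WT pools.

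The Otx2 (+/AA) pools were compared with the same WT pools. Of 42 carriers tested, 0 were past the threshold by edgeR and 0 by DESeq2, against 0.172% of the 14494 genes higher and 0.172% lower. At an unadjusted p under 0.05 by edgeR there were 7 carriers of the 42, and 1292 of the 14494 genes. The median log2 fold change was -0.12 over the carriers tested and -0.01 over all genes, and total counts moved the median of all genes by 0.12. Slc43a1, the carrier LAT3, was at 2.03 and 0.583 CPM in WT and 0.242 and 0.803 CPM in Otx2 (+/AA) pools (-1.36 ± 0.67, adjusted p = 0.6), and the groups overlapped. Slc7a11 was at 18.2 and 31.99 CPM against 45.5 and 40.0 CPM (0.77 ± 0.21, adjusted p = 0.17). Slc7a2, the cationic carrier CAT2, was at 13.7 and 27.9 CPM against 38.3 and 27.4 CPM (0.66 ± 0.26, adjusted p = 0.43). The WT pools lay far apart for these genes. Without WT pool B, Slc43a1 was at -1.99, Slc7a11 at 1.22 and Slc7a2 at 1.25. Without WT pool A, Slc43a1 was at -0.18, Slc7a11 at 0.42 and Slc7a2 at 0.23. Slc43a1 also moved to -0.72 without Otx2 (+/AA) pool A and to -2.42 without pool B.

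Between the constitutive labels, Otx2 (+/-) pools had more Slc1a3 and less Slc7a10 and Slc6a15 than Otx2 (+/AA) pools. Of 44 carriers tested, 1 was higher and 2 were lower, against 1.37% and 1.33% of the 14578 genes tested. The median log2 fold change was 0.13 over the carriers tested and 0.00 over all genes. Slc1a3 was at 18.5 and 11.5 CPM in Otx2 (+/AA) and 27.4 and 34.2 CPM in Otx2 (+/-) pools (1.04 ± 0.21, adjusted p = 0.023). Slc7a10 was at 109 and 110 CPM against 60.4 and 69.6 CPM (-0.75 ± 0.14, adjusted p = 0.013). Slc6a15 was at 85.3 and 88.1 CPM against 47.7 and 55.2 CPM (-0.75 ± 0.14, adjusted p = 0.013). None of them overlapped, but without Otx2 (+/-) pool A the adjusted p was 0.069 for Slc7a10 and 0.073 for Slc6a15. With all groups of the run in 1 fit it was 0.053 for Slc1a3. The Slc7a10 pools labelled Otx2 (+/AA) lay between the WT and Otx2 (+/-) pools, at -0.37 ± 0.13 against WT (adjusted p = 0.32 by edgeR).

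**Figure D4:**
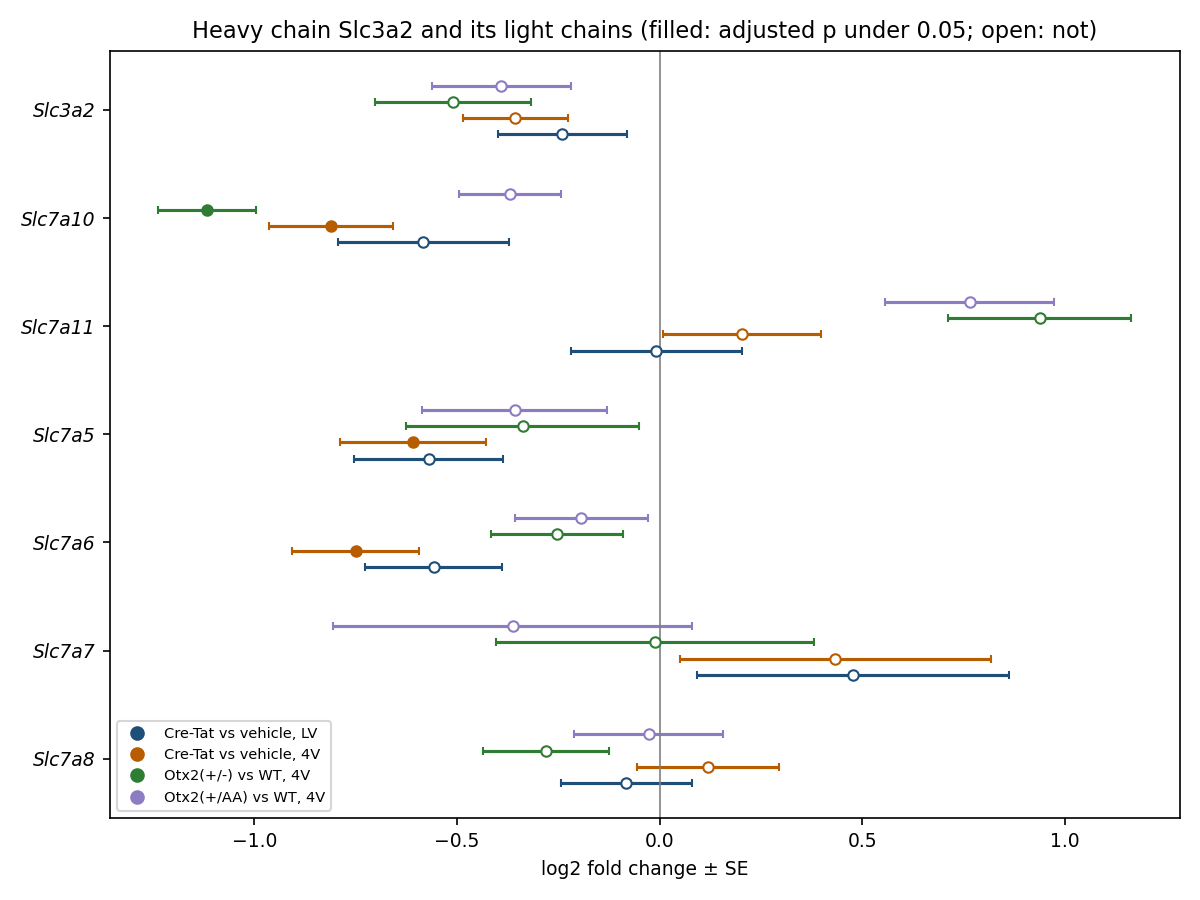
Log2 fold change ± SE of the heavy chain Slc3a2 and its light chains in 4 comparisons, with filled points for an adjusted p under 0.05. Slc7a10 is to the left of 0 in all 4 and filled in Cre-Tat 4V and Otx2 (+/-), Slc7a5 and Slc7a6 are filled in Cre-Tat 4V, and the Slc3a2 points are open.

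The response of 4V ChP to the Cre-Tat label was compared with that to the Otx2 (+/-) label over 8 pools. Of 48 carriers tested, 2 differed (4.17%), against 1.64% of the 15327 genes tested. Slc6a20a differed by -1.16 ± 0.24, Cre-Tat response minus Otx2 (+/-) response (adjusted p = 0.026 by edgeR). In the constitutive model it was at 77.3 and 60.7 CPM in WT and 90.0 and 62.7 CPM in Otx2 (+/-) pools (0.15 ± 0.19), which overlapped. Slc1a6 differed by 5.36 ± 1.10 (adjusted p = 0.027 by edgeR). It had 2 and 2 counts in the Otx2 (+/-) pools and 2 and 8 counts in the WT pools, so it was tested through the Cre-Tat 4V pools, where it was high, and the size of this difference rests on very few counts. The call for Slc1a6 was lost without Cre-Tat pool A (adjusted p = 0.056), Otx2 (+/-) pool A (0.06), vehicle pool A (0.094) or WT pool B (0.4). That for Slc6a20a was lost without Cre-Tat pool A (0.073) or B (0.054), Otx2 (+/-) pool A (0.075), vehicle pool A (0.11) or B (0.12), or WT pool B (0.11). Slc1a3 and Slc7a10 differed by -0.11 ± 0.30 and 0.29 ± 0.21 (adjusted p = 0.92 and 0.6 by edgeR), which did not pass the threshold. The parts of strain, run and model in these differences cannot be told apart.

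Between the ventricles of vehicle mice, 6 of 45 carriers tested were higher in LV ChP (13.3%) and 1 was lower (2.22%), against 3.46% and 3.98% of the 14561 genes tested. These vehicle pools are also the controls of the Cre-Tat comparisons, and here too LV and 4V pools may share mice. The median log2 fold change was 0.16 over the carriers tested and 0.01 over all genes. Total counts, which moved the median of all genes by -0.19, gave 4 higher and 1 lower. Slc17a8 was at 19.5 and 21.1 CPM in LV and 1.09 and 0.813 CPM in 4V ChP (4.38 ± 0.24, adjusted p = 4.10e-07). Slc6a17 was at 8.55 and 10.1 CPM in LV and 1.16 and 0.542 CPM in 4V ChP (3.39 ± 0.32, adjusted p = 4.04e-05). Slc7a11 was at 116 and 148 CPM in LV and 46.8 and 75.3 CPM in 4V ChP (1.12 ± 0.18, adjusted p = 0.0024). For these 3 genes the ventricles did not overlap and the call held with any 1 pool left out. In pools labelled Cre-Tat, which this comparison did not use, Slc17a8 was at 8.52 and 9.20 CPM in LV and 0.478 and 0.394 CPM in 4V ChP. Slc6a17 was at 7.07 and 8.84 CPM and 1.43 and 0.886 CPM there, and Slc7a11 at 161 and 101 CPM and 82.3 and 57.2 CPM.

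Slc1a2 was at 14.4 and 27.1 CPM in LV and 11.2 and 6.05 CPM in 4V vehicle pools (1.23 ± 0.29, adjusted p = 0.021). Slc1a3 was at 15.2 and 20.03 CPM against 11.5 and 7.59 CPM (0.86 ± 0.21, adjusted p = 0.023). Both were higher in LV ChP with no overlap, but without 4V pool B their adjusted p was 0.2 and 0.21. Slc6a8, the creatine carrier, was at 45.6 and 54.9 CPM against 34.3 and 37.8 CPM (0.48 ± 0.13, adjusted p = 0.042). Slc6a20b was lower in LV ChP, at 0.747 and 0.486 CPM against 2.39 and 1.81 CPM (-1.76 ± 0.47, adjusted p = 0.038), counted on a transcript annotated for nonsense-mediated decay. It had 16 and 10 counts in LV and 33 and 20 counts in 4V vehicle pools. The gene thus passed the filter on low counts through the 4V pools, where it was high. Without 4V pool A, 4V pool B or LV pool B, the adjusted p was 0.19, 0.14 and 0.27 for Slc6a8 and 0.25, 0.13 and 0.16 for Slc6a20b. DESeq2 called neither (adjusted p = 0.075 and 0.15), and with total counts it was 0.23 for Slc6a8 and 0.054 for Slc1a3. The astrocyte markers summed to 94.0 and 94.8 CPM in LV and 141 and 121 CPM in 4V vehicle pools, with Aldh1l1 called lower in LV. The endothelial markers summed to 202 and 243 CPM against 137 and 156 CPM, with Pecam1 and Plvap called higher in LV, as were Mobp of the oligodendrocyte, Dcn of the fibroblast and Csf1r of the macrophage markers. Their part in these results was not tested.

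**Figure D5:**
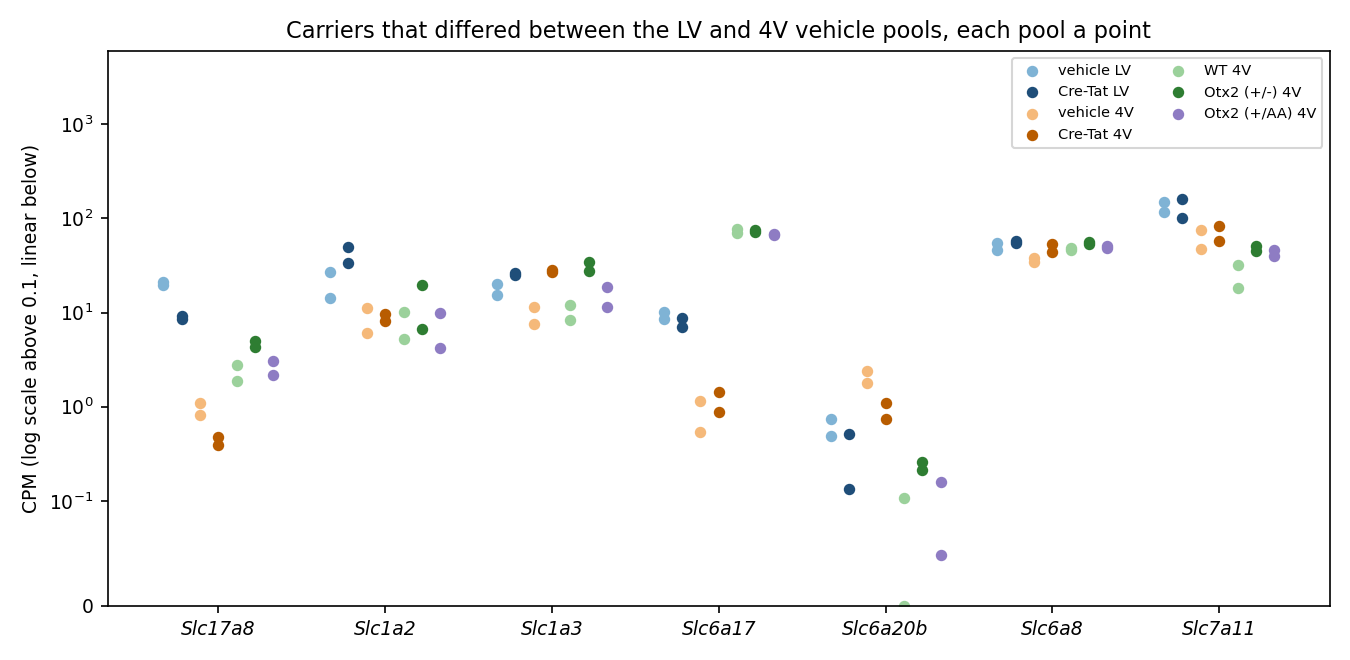
CPM of the 7 carriers that differed between LV and 4V vehicle pools, with 1 point for each of the 14 pools, on an axis that is logarithmic above 0.1 and linear below. Slc17a8 and Slc6a17 separate the LV pools from the 4V pools of the conditional model, and Slc6a17 is at 66.2 to 76.1 CPM in the constitutive 4V pools.

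Other genes of amino acid transport and use were read from 3 lists, whose counts stand beside the shares of all genes called. Under the Cre-Tat label, 2.21% of all genes rose and 1.03% fell in the lateral ventricles, against 5.7% and 4.98% in the fourth. In Otx2 (+/-) pools against WT the shares were 1.78% and 1.75%. At an unadjusted p under 0.05 by edgeR were 2126 of 15002 genes in LV and 3234 of 14550 in 4V ChP under the Cre-Tat label. For Otx2 (+/AA) against WT there were 1292 of 14494. Of 16 other amino acid and peptide carriers tested, 0 were higher and 2 were lower by edgeR in each ventricle under the Cre-Tat label, with 3 in LV and 4 in 4V ChP at an unadjusted p under 0.05 and 2 called by DESeq2 in each. Slc29a4, the plasma membrane monoamine carrier, was among those lower in both ventricles. In 4V ChP it was at 95.6 and 77.6 CPM in vehicle and 34.6 and 35.1 CPM in Cre-Tat pools (-1.31 ± 0.14, adjusted p = 8.36e-06). In Otx2 (+/-) pools against WT, Slc16a10, the aromatic amino acid carrier TAT1, was higher, at 0.428 and 0.816 CPM against 4.02 and 3.60 CPM (2.62 ± 0.38, adjusted p = 0.0074), and Slc29a4 was lower. In the comparison with WT, Slc16a10 passed the filter on low counts through the Otx2 (+/-) pools, where it was high. Slc16a10 was also higher in Otx2 (+/-) than in Otx2 (+/AA) pools, and Slc29a4 higher in LV than in 4V vehicle pools.

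Of the genes of amino acid and transmitter metabolism, 3 of 35 tested were higher in Cre-Tat 4V pools, namely Prodh, Glud1 and Maob, and 2 were lower, among them Cth. In LV ChP 1 of 38 was higher, Maob, which breaks down monoamines (0.97 ± 0.17, adjusted p = 0.0063). In the Otx2 (+/-) pools 1 of 36 was lower than in WT, Gldc of the glycine cleavage system, at 15.2 and 10.1 CPM against 2.66 and 1.75 CPM (-2.52 ± 0.28, adjusted p = 0.0023). Gldc was also lower than in Otx2 (+/AA) pools, higher in LV than in 4V vehicle pools, and different between the models. Bcat2 was lower in LV than in 4V vehicle pools. Of the targets of ATF4, the factor of the amino acid starvation response, 0 of 20 were called in LV ChP by edgeR, 5 were at an unadjusted p under 0.05 and 1 was called by DESeq2, and in Cre-Tat 4V pools 1 of 18 was higher (Ddit4) and 1 lower (Vldlr). In Otx2 (+/-) pools 1 of 18 was lower than in WT (Nupr1). Otx2 (+/AA) pools against WT had 0 calls by edgeR in these 3 lists, with 3 other carriers, 5 metabolic genes and 1 ATF4 target at an unadjusted p under 0.05. DESeq2 called 1 metabolic gene there.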

How the data were processed

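RNA of 14 ChP pools was analysed from 22 files of counts per transcript, deposited by the authors as raw read counts over 95533 Ensembl transcripts. Per the labels, ribosomal RNA was depleted and libraries were made with a strand-specific kit, while the study's methods name polyA+ RNA. The submitters' processing notes name Bowtie 0.12.9, HTSeq 0.5.3 and DESeq 1.8.3 on mm10, and the strand setting of the counting is not given in the sources used here. Of the transcripts, 82807 (89.5% of counts) matched GENCODE vM21, and each gene was counted on its transcript with most counts. Totals over all transcripts were 22750019 to 50088408 per pool.

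For 14 of 16 files of the conditional run, the library number in the name differs from that of the sample the file is attached to. Files were joined by number. Runs of the same number differed by chi-square per degree of freedom of 1.00 to 1.03, those of the same sample as attached by 12.2 to 18.7. The technical runs of a pool were summed.

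Counts were tested with edgeR 4.0.16 (quasi-likelihood, filterByExpr, TMM, R 4.3.3) and Benjamini-Hochberg adjustment over all genes tested, at a threshold of 0.05. Tables and figures were made with Python 3.11.15. Groups came from the labels. The labels call pools A and B biological replicates, and p-values measure the spread between these pools, and an exact permutation test of 2 against 2 cannot go below 0.333. Counting intervals and floors cover counting error only. The fit was tested on simulated counts. Alternatives were DESeq2 1.42.0, scaling by its size factors or by total counts, leaving out the filter or asking for a mean count above 10, a replicate block, sums over transcripts, all groups of a run, files as attached, and each pool left out.

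Carriers named with values were every carrier past the threshold in any of 6 pairwise comparisons or 2 interactions, the 10 highest per kb in vehicle pools of either ventricle, and, where fewer than 3 passed, the 3 with the largest absolute log2 fold change. Others named were chosen after their values were seen, as were the marker genes of the ventricles. The members, the gene lists and the marker lists were chosen with earlier results of these data known. The values of some genes are not reported here.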

Additional observations from a re-analysis of the deposited data

Results flagged for a closer look

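For 2 carriers the response of 4V ChP differed between the Cre-Tat label and the Otx2 (+/-) label by the test of that difference. Slc1a6 differed by 5.36 on the log2 scale (adjusted p = 0.027 by edgeR). It was at 9.50 and 6.50 CPM in Cre-Tat pools and at 0.104 and 0.106 CPM in Otx2 (+/-) pools. It had 2 and 2 counts in the latter and 2 and 8 in WT, and was tested through the Cre-Tat pools, where it was high, so the size and p rest on very few counts. Slc6a20a differed by -1.16 (adjusted p = 0.026 by edgeR). It was lower in Cre-Tat pools and overlapped between Otx2 (+/-) and WT pools. With the counts of all transcripts of a gene summed, the adjusted p was 0.057 and 0.059.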

How the results depend on the processing

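The count of carriers past the threshold moved by more than 1.5 times in these settings. In LV ChP the 5 carriers became 3 with DESeq2's size factors, 8 with no filter, 3 with a mean count above 10, and 3 to 7 with 1 pool left out. In 4V ChP the 12 became 7 with DESeq2 and 6 to 13 with 1 pool left out. For Otx2 (+/-) against WT the 2 became 4 with DESeq2 and 4 to 8 with 1 pool left out. For Otx2 (+/AA) against WT the 0 by edgeR became 2 with no filter and 0 to 4 with 1 pool left out. For Otx2 (+/-) against Otx2 (+/AA) the 3 became 4 to 6 with 1 pool left out. For LV against 4V the 7 became 4 with sums over transcripts and 3 to 10 with 1 pool left out. For the comparison of the models the 2 became 5 with no filter, 0 with sums over transcripts, and 0 to 3 with 1 pool left out. With 1 pool left out, the lone pool is assumed to vary like the other group. Over all genes, and over all alternatives but the attachment of files, counts ran from 321 to 1012 in LV ChP, 905 to 3114 in 4V ChP, 395 to 2539 for Otx2 (+/-), 18 to 549 for Otx2 (+/AA) and 400 to 2288 between ventricles.

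With the pool letter as a replicate block, 7 carriers were called in LV ChP, 19 in 4V ChP, 11 for Otx2 (+/-), 2 for Otx2 (+/AA), 3 between the constitutive labels, 9 between ventricles and 4 between models. Over all genes this block called 3114 in 4V ChP, 2539 for Otx2 (+/-), 549 for Otx2 (+/AA), 2288 between ventricles and 1048 between models. Its counts over all genes in LV ChP and between the constitutive labels are not given here. The carrier counts there are thus not read as particular to the carriers. Nothing in the sources ties a letter to the same mice, litter or day across groups, LV and 4V included, with correlations of deviations of -0.128 to 0.359. A crossed block in LV ChP, added after the data were seen, called 11 carriers and 1012 of all genes.

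With files taken as attached, the runs summed in a pool carry different library numbers for most pools, and 19 carriers were called in LV ChP, 29 in 4V ChP, 18 between the ventricles' responses and 16 between models. Counts over all genes in this setting are not given here, so these counts are not read as particular to the carriers. There, 18 log2 fold changes turned. In LV ChP these were Slc17a8 (4.193), Slc1a6 (-1.485) and Slc6a20a (0.047). In 4V ChP they were Slc17a5 (0.280), Slc1a1 (1.058), Slc1a6 (-1.124), Slc6a15 (0.479), Slc6a20a (0.215), Slc6a6 (-0.335), Slc6a9 (-0.321), Slc7a10 (0.511), Slc7a4 (0.308), Slc7a5 (0.359) and Slc7a6 (0.283). Between ventricles they were Slc1a3 (-0.036), Slc6a20b (0.114) and Slc6a8 (-0.241), and between models Slc6a20a (0.059). Slc17a6 and Slc1a2 in LV ChP and Slc1a3 in 4V ChP kept their direction. Of the values of single carriers under the alternatives, 356 kept their direction and side of the threshold, 74 kept their direction but no longer passed, 7 newly passed and 18 turned. Apart from the attachment of files, the causes of these shifts were not tested.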
